A study of Rattus norvegicus with 4 samples.

Results

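The translation initiation and elongation factor genes were taken as every rat gene with a symbol starting with Eif1 to Eif6, Eef1 or Eef2 that had at least 1 probe on the array, without the eIF2 kinase genes. This gave 55 genes of 16581 named genes, measured by 77 of 21109 named probes. The rule itself reads gene names and no measured value. The symbols also take in regulators that are not factors themselves, among them the eIF4E-binding proteins, the kinase and a methyltransferase of eEF2, and 2 methyltransferases of eEF1A. Genes of the same machinery whose symbols matched no probe through the RefSeq table, such as Eif4g1, Eif5, Eif2a, Eif3k and Eif4e2, were not analysed here.

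RNA came from NR8383 cells, an alveolar macrophage line derived from a normal rat and used here after 20 passages, and was measured on 1-colour Agilent rat arrays. All 4 arrays are described as biological replicates of 1 group, which was grown for 48 h after seeding and exposed for 4 h to 1.2 cm²/cm² of the amino-functionalized carbon nanotubes NRCWE049. The series sets exposed against unexposed cells, and the unexposed arrays were not analysed here, so the values describe exposed cells and no factor gene can be called induced or repressed. Of the macrophage markers, 8 of 9 measured gave a signal well above background on every array, including Csf1r (-1.28 ± 0.13, SD, n = 4) and Cd68 (3.04 ± 0.092), and Marco did not. Of the markers of other lung cells, Cd3d and Pecam1 were well above background and Sftpc, Scgb1a1, Epcam, Col1a1 and Pdgfra were not. In such bulk RNA, fewer cells of a type and less RNA per cell cannot be told apart. The arrays detected 19143 to 19311 of 45598 probes, and their number limits the precision.

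Translation starts when eIF2, carrying GTP and the initiator tRNA, joins the small ribosomal subunit together with eIF1, eIF1A, eIF3 and eIF5. The cap-binding complex of eIF4E, eIF4G and the helicase eIF4A recruits the mRNA, and the eIF4E-binding proteins block that step until mTOR phosphorylates them. Phosphorylation of eIF2 turns it into an inhibitor of its exchange factor eIF2B and lowers general translation under stress. During elongation, eEF1A brings the aminoacyl-tRNA, the eEF1B subunits recharge it with GTP, and eEF2 moves the ribosome along until its kinase Eef2k inactivates it.

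A level below is the log2 processed signal of a gene's probe minus the 75th percentile over the detected probes of the same array. It follows 1 gene from array to array, and levels of different genes are not set against each other. Nearly all of the measured factor genes were detected. Of 55 factor genes, 52 (94.5%) were detected, meaning well above background on all 4 arrays, where 52.5% of all named genes were. The remaining 3 passed on none of the arrays: Eif5a2, the second eIF5A gene; Eif2s3y, the Y-linked copy of the eIF2 gamma subunit; and Eef1akmt2, a lysine methyltransferase of eEF1A. Their 4 probes had processed signals from 3.563 to 5.075, and the lowest signal that counted as well above background was 16.7 in replicate 1 and 20.1 in replicate 4. The Eef1akmt2 probe matches a transcript that RefSeq lists as non-coding, and the probes of the other 2 genes match coding transcripts. By probe, 72 of 77 (93.5%) were detected on all arrays, against 51.4% of all named probes.

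Paralogues differed in detection. Eif5a, whose product carries the modified lysine hypusine, was detected at 3.88, 3.67, 3.68 and 3.69 in replicates 1 to 4 (SD 0.10, n = 4), and both probes of Eif5a2 were below the detection limit. The X-linked Eif2s3 was detected on all arrays at -3.98, -3.88, -4.34 and -3.98 (SD 0.20), and Eif2s3y was not. Both eEF1A genes were detected: Eef1a1, the widely used form, at 5.71, 5.53, 5.46 and 5.48 (SD 0.11), and Eef1a2, known as the form of muscle and neurons, at -1.28, -1.42, -1.43 and -1.48 (SD 0.086). Replicate 1 was the highest array for Eif5a, Eef1a1 and Eef1a2 with this scaling, but replicate 4 was for Eif5a and Eef1a1 with quantile normalization and replicate 3 for Eef1a2 with the median over all probes. By these probes each of the 3 genes spanned at most 1.19-fold from its lowest to its highest array, and another of the 3 Eef1a1 probes was lowest in replicate 1. The signal of Eef1a2 was 739.5 to 923.7, far above the detection limit.

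The start regions of these pairs are shown because many translation factor mRNAs begin with a C followed by a run of pyrimidines, the 5′ terminal oligopyrimidine (TOP) tract through which mTOR controls their translation. Each line holds 15 bases before and 15 after the start of transcription annotated by RefSeq in GRCr8, on the transcript strand. Capitals mark the longest run of a C followed by at least 5 bases that are each C or T, searched on the transcript strand only.
Eef1a1 (chr8:88225055-88225084, minus strand): tcgccttggacgttCTTTTTCgcaacgggt
Eef1a2 (chr3:188652619-188652648, minus strand): cgctcgggtacatctctgcagctgcgtcct
Eif2s3 (chrX:62933685-62933714, minus strand): ggcggcagccgagcattttCCTTTTCTCTC
Eif2s3y (chrY:944638-944667, plus strand): ttCCTTCTTTCgtgagcaagatggcgggcg
Eif5a (chr10:55143207-55143236, minus strand): ggcgctagaggcggcggcggcggcggcagc
Eif5a2 (chr2:113657819-113657848, plus strand): ggccccgccccgtctcctggaccagccgcg
Eef1b2 (chr9:72074076-72074105, plus strand): tttccggccggtcccggCCCTTTTTCTCCC
Eif3f (chr1:172369047-172369076, plus strand): tcacgcccttccgttctagCCTCTCTCTTT

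Eef1a1 has a run of 7 bases that opens at the base just before the annotated start, and its paralogue Eef1a2 has none in this window. In Eif2s3 a run of 11 bases lies just after the start, and in Eif2s3y a run of 9 lies before it. Neither Eif5a nor Eif5a2 holds such a run. Eef1b2, with a run of 13, and Eif3f, with a run of 11, were added because they carry long runs. These runs, like that of Eif2s3, reach the end of the window. The eEF1A methyltransferase gene Eef1akmt1, with a run of 12, is not shown. Eef2 and Eef1g, whose windows hold no run, are not shown either. Of the 49 factor genes matched to the RefSeq table of start regions, 16 (32.7%) held a run, against 23.3% of the 27453 genes in that table. A match is a stretch of letters and does not show that the mRNA is a TOP mRNA, and annotated starts can be off by some bases.

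The orders of the arrays given next are those of this scaling, and how far they hold under others is given with the array shifts. All 5 genes of eIF1 and eIF1A, the scanning factors, were detected. Eif1, which keeps the scanning ribosome from starting at the wrong codon, was at 5.04, 5.09, 4.99 and 4.90 in replicates 1 to 4 (SD 0.082), nearly level across the arrays. Eif1ax, the X-linked eIF1A gene, ran at -2.11, -2.43, -2.36 and -1.95 (SD 0.22), with replicates 1 and 4 above the other two. Eif1a, its relative in the rat, was at -3.71, -3.32, -3.76 and -3.82 (SD 0.22), with replicate 2 above the others. Eif1b and Eif1ad, an eIF1A-domain gene, were also detected.

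By the brightest probe of each gene, the subunits of eIF2 and of its exchange factor eIF2B differed between arrays by at most 1.42-fold. The single-spot probe of Eif2s2 differed by more, from -4.23 to -3.53. Eif2s1, the alpha subunit that the stress kinases phosphorylate, was at 1.28, 1.22, 1.01 and 0.97 (SD 0.15, n = 4), with replicates 1 and 2 above replicates 3 and 4. Eif2s2, the beta subunit, was at 0.55, 0.90, 0.62 and 0.70 (SD 0.15) and was highest in replicate 2 by its probe with 10 spots. Its single-spot probe was lowest in that replicate, at a signal of 105.2 where replicates 1, 3 and 4 had 171, 188.1 and 164.8, so the order of the arrays is not settled for this gene. Eif2d, a tRNA-loading factor outside the eIF2 complex, was detected by 1 probe on all arrays, at 1.54, 1.39, 1.46 and 1.48 (SD 0.063), and by its other probe on only 2 of the arrays. All 5 eIF2B genes were detected. The catalytic subunit gene Eif2b5 stayed within 1.09-fold, at 0.07, 0.04, 0.02 and -0.06 (SD 0.055). Eif2b1, the alpha subunit that senses phosphorylated eIF2, was at -1.26, -1.75, -1.72 and -1.77 (SD 0.24), and replicate 1 alone stood above the rest. Levels of Eif2b2, Eif2b3 and Eif2b4 spanned 0.086 to 0.341 log2 units.

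Every one of the 12 measured eIF3 subunit genes was detected. eIF3 is the large scaffold that holds the small ribosomal subunit and the mRNA, and its genes had a median SD of 0.109. The core subunit gene Eif3a was at -1.15, -0.61, -0.81 and -0.79 (SD 0.23), and replicate 1 was below the others. Eif3e was at 0.21, -0.04, -0.16 and -0.18 (SD 0.18), and there replicate 1 was above the others. Eif3f was the steadiest factor gene, at 3.67, 3.65, 3.66 and 3.62 (SD 0.023), a span of 1.04-fold. Replicate 1 was thus low for 1 subunit of the complex and high for another. Spots of Eif3a, Eif3d, Eif3e and Eif3i were among those in dim areas of replicate 1, which are described with the spread below.

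The cap-binding group held the factor gene with the largest SD, Eif4ebp3. Eif4e, which binds the cap, was at -2.86, -3.15, -3.20 and -3.08 (SD 0.15), highest in replicate 1. All 3 genes for eIF4E-binding proteins were detected. Eif4ebp1, the main mTOR target among them, was at 2.69, 2.76, 2.87 and 2.88 (SD 0.092), with replicates 3 and 4 above replicates 1 and 2. Eif4ebp2 was at -0.56, -0.21, -0.44 and -0.20 (SD 0.18), with replicates 2 and 4 above the others. Eif4ebp3 was at -3.32, -3.06, -2.67 and -2.41 (SD 0.40), which is 1.88-fold between replicates 1 and 4 and the largest SD of the 52 detected factor genes. Each of these genes was lowest in replicate 1 and highest in replicate 4, and only Eif4ebp3 kept both under the 3 other scalings and normexp. Eif4enif1, the transporter that carries eIF4E into the nucleus, was at -2.01, -1.64, -1.66 and -1.68 (SD 0.17) and was also lowest in replicate 1. Eif4e3, a cap-binding relative of eIF4E, was at -1.75, -1.74, -1.63 and -1.63 (SD 0.068).

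The 7 helicase, helper and scaffold genes measured for the cap complex were all detected. Eif4a1, the main RNA helicase of initiation, was at 0.92, 0.69, 0.69 and 0.82 (SD 0.11) and highest in replicate 1. Eif4g3, a scaffold related to eIF4G1, was at -1.78, -1.56, -1.35 and -1.29 (SD 0.22), with replicate 1 lowest. Eif4a3, the helicase of the exon junction complex, stayed within 1.07-fold, and Eif4g2, which supports initiation without the cap, within 1.09-fold by its brightest probe. The 3 other Eif4g2 probes had SDs of 0.168, 0.199 and 0.126, where the brightest had 0.059. Eif4a2, Eif4b and Eif4h, the last 2 being helper proteins of eIF4A, spanned 0.111 to 0.235 log2 units by their brightest probes. The other Eif4b probe spanned more, from -4.35 in replicate 3 to -3.51 in replicate 2 (SD 0.38). Subunit joining needs Eif5b, which was at -1.76, -1.61, -1.51 and -1.49 (SD 0.12), lowest in replicate 1. Eif6, which keeps the large ribosomal subunit apart until it is ready, was at 3.41, 3.25, 3.37 and 3.53 (SD 0.12), lowest in replicate 2 and highest in replicate 4.

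Of 11 elongation genes measured, all but Eef1akmt2 were detected. Eef1b2, the exchange factor that recharges eEF1A, was at 4.82, 4.91, 4.70 and 4.58 (SD 0.14), and Eef1g, which anchors that complex, at 5.14, 5.18, 5.02 and 4.87 (SD 0.14). Both were lowest in replicate 4. Eef2, the translocase, was at 5.05, 4.81, 4.75 and 4.74 (SD 0.14), with replicate 1 above the others. Its kinase gene Eef2k was at -2.38, -2.17, -2.35 and -2.30 (SD 0.092), lowest in replicate 1. Eef1d, Eef1e1, Eef1akmt1 and Eef2kmt were detected too, and of these Eef1e1, a component of the multi-synthetase complex, had the largest span, 1.34-fold.

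**Figure D1:**
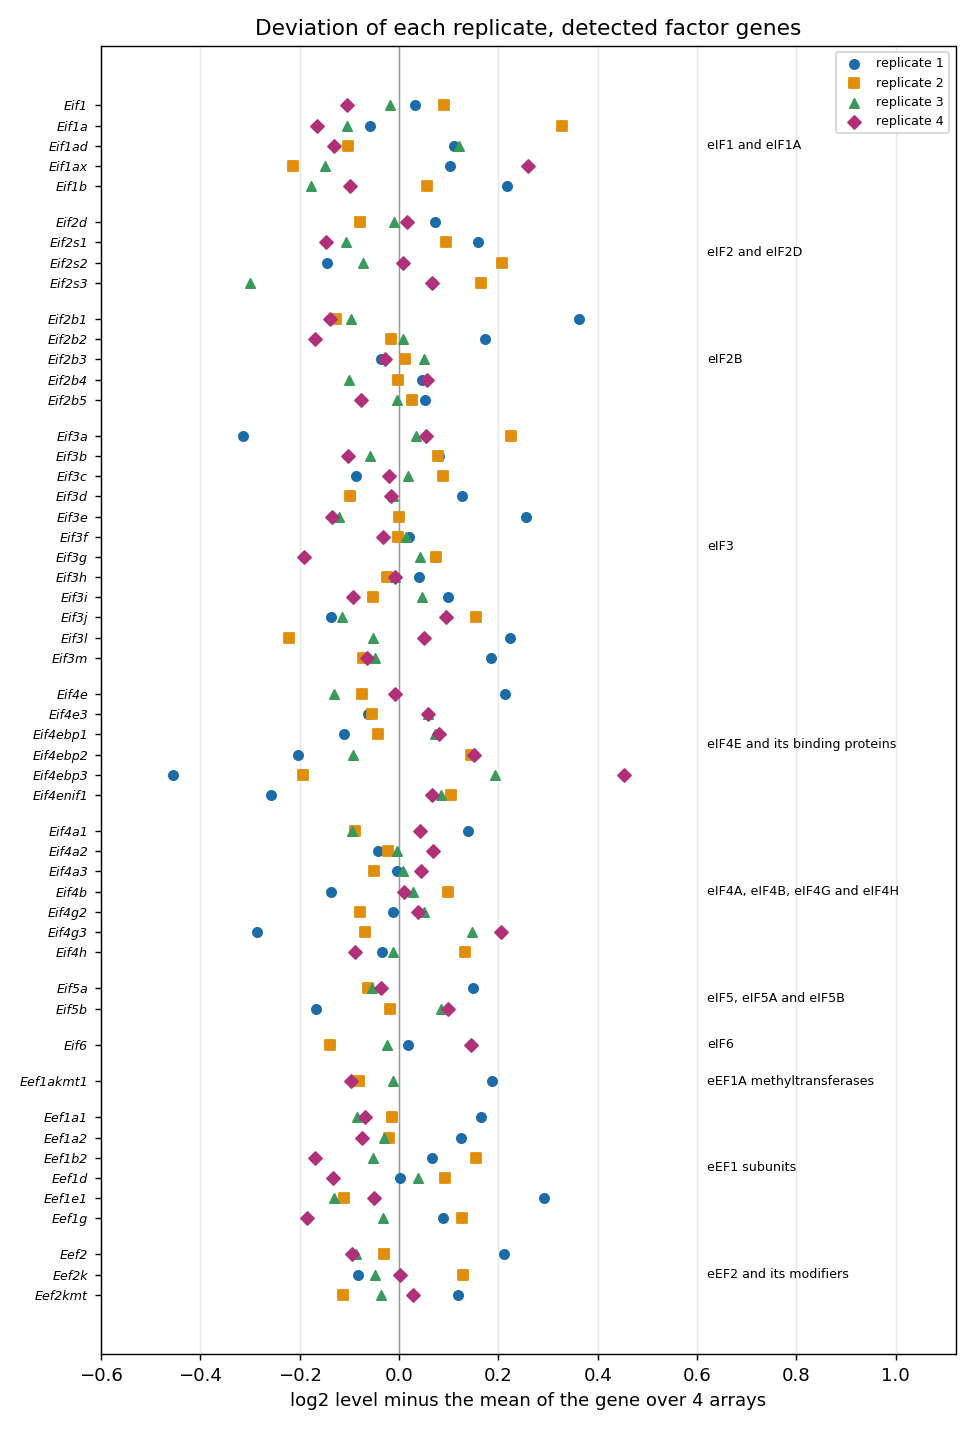
Each row is 1 of the 52 detected factor genes, and the x axis gives the log2 level of each of the 4 replicates minus the mean of that gene. Eif4ebp3 has the widest row, spanning 0.908 log2 units with replicate 1 lowest and replicate 4 highest, and Eif3f the narrowest, spanning 0.052.

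The factor genes differed little between replicates. Their median SD was 0.12 against 0.151 over all 8713 detected genes, and the median ratio of the highest to the lowest array was 1.19 against 1.26. No factor gene spanned more than 2-fold, where 2.66% of all detected genes did. Read against the SD expected at each gene's intensity, 22 of 52 (42.3%) were above it, against 46.6% of all. In limma's F test of each gene's variance against that expected at its intensity, 0 of 52 factor genes passed an adjusted p of 0.05 (Benjamini-Hochberg over 8713 genes), where 0.0115% of all genes did, and the lowest adjusted p was 0.969. Without adjustment the same limma F test put 1 of the 52, Eif4ebp3, under 0.05, against 4.3% of all genes. In 5 of 52 (Eif2b1, Eif3g, Eif3m, Eif4enif1 and Eif5a) 1 replicate stood apart from the other 3 by Dixon's ratio, against 6.47% of all genes. With 4 arrays this test can pass only spreads many times larger than expected, so a gene that misses its threshold is not shown to be constant.

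**Figure D2:**
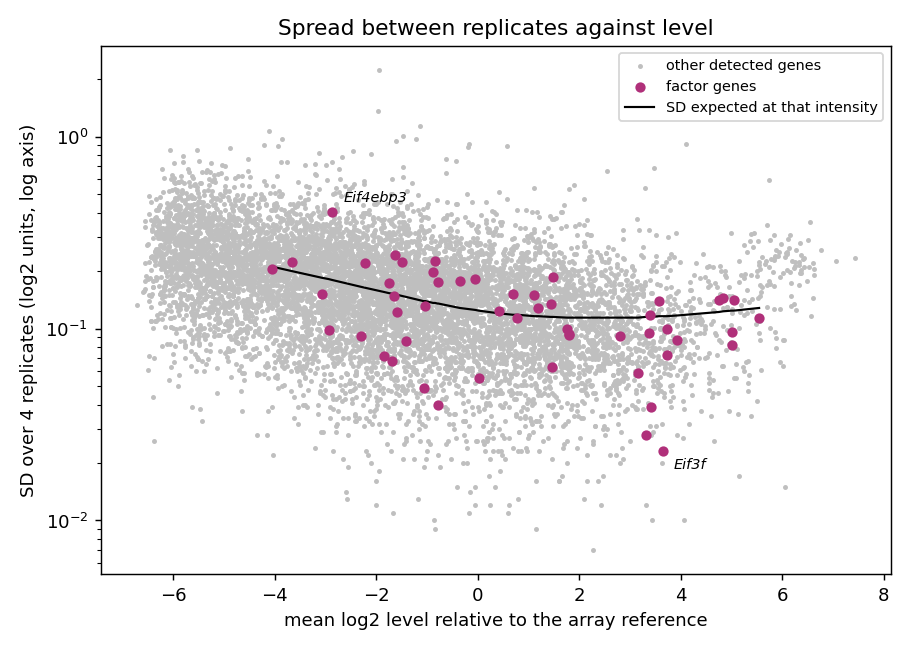
The x axis is the mean log2 level and the y axis, on a log scale, the SD over 4 replicates, for the factor genes and all other detected genes, with the SD that limma expects at each intensity as a line. The factor genes lie on both sides of the line, with Eif4ebp3 at an SD of 0.403 and Eif3f at 0.023.

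With the scaling used here, the only one under which arrays were left out, replicate 1 carried a large part of this spread. Without it the median SD of the factor genes was 0.073, and that of all detected genes was 0.116. Leaving out replicate 2, 3 or 4 gave 0.118, 0.127 and 0.119 for the factor genes. On replicate 1, 6 spots of factor genes lay in 3 blocks of the array with an excess of low spots. They belonged to Eef2, Eif3a, Eif3d, Eif3e, Eif3i and Eif4h, and the median SD without all dim blocks was 0.115. The part of these areas in single genes was not tested.

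Many factor genes were printed several times, which separates the error of the spot from the difference between arrays. Of the 77 probes, 24 were printed 10 times on each array and stand for 20 genes. Their spots within an array had a median SD of 0.076, which gives the array mean a standard error of 0.025 at the median. The SD between the 4 arrays was larger than that standard error for 23 of the 24 probes (95.8%), by 4.31 times at the median. Over all 621 named and detected probes printed so often, it was larger for 97.6% and the median was 4.31 times too, so the factor probes were like the others here. Eif3a stood 8.01 times above it, Eef1b2 7.74 times and Eif3e 6.92 times. Eif3f was the exception, at 0.848 times. The comparison sets arrays against repeated spots alone and does not separate cultures from labelling, hybridization or position on the slide.

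**Figure D3:**
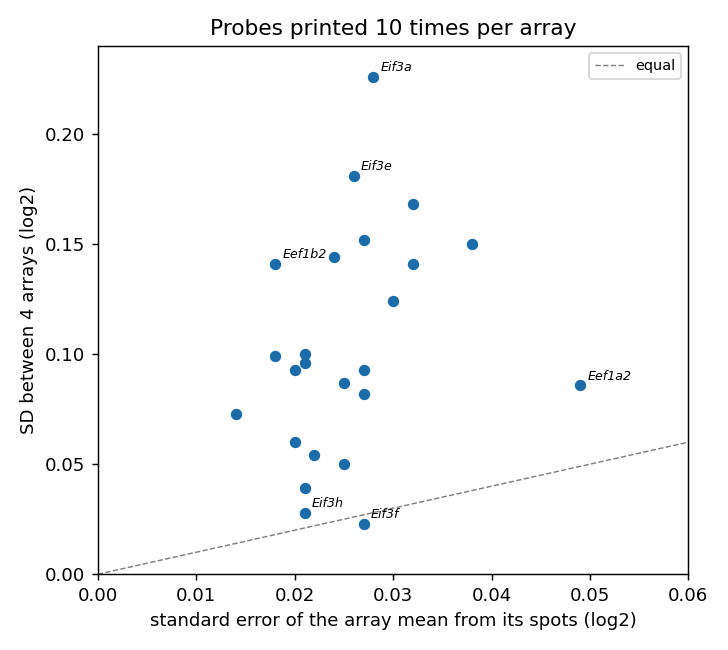
Each point is 1 of the 24 factor probes printed 10 times per array, with the standard error of the array mean from its spots on the x axis and the SD between the 4 arrays on the y axis, both in log2 units. All points but Eif3f lie above the dashed line of equal values, and Eif3a, at 0.226, is the highest.

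Different probes of 1 gene agreed only in part. Of 18 factor genes with several probes, 1 (5.56%), Eif2d, had probes that disagreed on detection, against 22% of all such named genes. In the 16 genes with several detected probes, all probes named the same highest array in 9 and the same lowest array in 5. This agreement was not counted over all named genes, so whether the factor genes differ from them in it was not tested. Eif3h and Eif6 were among the 3 genes that matched in both, and Eef1a1, Eef1g, Eif2s2, Eif3j and Eif4g2 matched in neither. The largest gap between probes of a gene on 1 array was 0.264 log2 units at the median and ran from 0.046 for Eif1 to 0.604 for Eif2s2. The order of the arrays for a gene with 1 probe therefore rests on that probe. Of the 55 genes, 37 had 1 probe, including all 3 eIF4E-binding protein genes. RefSeq names pseudogenes for 31 of the 55 (56.4%), most for Eef1a1 with 20 and Eef1g with 16. The same share over all named genes was not counted. The probes were not compared with these copies, so whether RNA of the copies adds to the signal of the gene was not tested.

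By array, the factor genes as a whole shifted little. Their median deviations from the gene mean were 0.06, -0.016, -0.021 and -0.018 in the 4 replicates, and over all detected genes they were 0.016, -0.01, -0.014 and 0.005. Replicate 1 was the highest array for 23 of 52 factor genes (44.2%), where it was for 34.6% of all detected genes, and the lowest for 15 (28.8%), where it was for 28.5%. Replicate 4 was the lowest for 19 (36.5%, against 23.7% of all) and the highest for 10 (19.2%, against 24.7%). Replicate 2 was lowest for 11 (21.2%, against 27.4%) and highest for 15 (28.8%, against 24.8%), and replicate 3 lowest for 7 (13.5%, against 20.3%) and highest for 4 (7.69%, against 15.9%). Replicates 1 and 2 both lay below replicates 3 and 4 in 8 of 52 (15.4%, against 24.9% of all) and both above in 13 (25%, against 26.4%). These signs and counts depend on the scaling: with quantile normalization the shift was -0.006 in replicate 1 and 0.026 in replicate 4, and replicate 1 was highest for 18 (34.6%, against 34.4% of all) and replicate 4 lowest for 12 (23.1%, against 23%). The shares of the factor genes then lay near those of all genes. With the 75th percentile over all probes, replicate 1 was highest for 50% (against 40.4%) and replicate 4 lowest for 48.1% (against 34.4%). With normexp, replicate 1 was highest for 50% (against 39%) and replicate 4 lowest for 28.8% (against 21.8%). In these settings the shares of the factor genes stayed above those of all genes. With the median over all probes as the reference, the shift was -0.012 in replicate 1 and 0.091 in replicate 4, and replicate 1 was highest for 11 (21.2%, against 18.6%). Replicate 4 was then lowest for only 2 (3.85%, against 7.05%), so its share lay below that of all genes. Over 5 settings (the main scaling, the 3 others and normexp), 16 of 52 factor genes kept the same lowest array, 13 the same highest array and 2, Eif1ax and Eif4ebp3, kept both. The same counts were not made over all detected genes, so whether the factor genes differ from them here was not tested.

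Families differed in which array was lowest, as a description of these 4 arrays. For eIF4E and its binding proteins, 5 of 6 genes were lowest in replicate 1, where 28.5% of all detected genes were. The median deviations of this group were -0.157, -0.048, 0.066 and 0.074 in replicates 1 to 4. The deviation of this group in replicate 1 was negative under the 3 other scalings and under normexp background correction, from -0.128 to -0.228, though the count lowest there was 4 or 3 of 6. For eIF3, replicate 1 was highest in 8 of 12, where it was for 34.6% of all detected genes. The count was 4 with quantile normalization and 2 with the median over all probes. It was 9 with the 75th percentile over all probes and 7 with normexp. The median deviation of eIF3 in replicate 1 was positive in each setting, from 0.005 to 0.105. For the group of eEF1 genes, which also takes in Eef1e1 of the multi-synthetase complex, replicate 4 was lowest in 4 of 6 (23.7% of all genes were). The median deviation of this group there was -0.104. The count was 2 with quantile normalization or the median over all probes, 5 with the 75th percentile over all probes and 4 with normexp. The deviation was 0.005 with the median over all probes.

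Genes that control eIF2 lie outside the rule and were followed as a list. All 7 measured were detected: the 4 eIF2 kinase genes, the phosphatase regulators Ppp1r15a and Ppp1r15b, and Impact, an inhibitor of the kinase GCN2. Their median SD was 0.256, with 6 of 7 above the SD expected at their intensity (46.6% of all genes were), and none passed the variance test (lowest adjusted p = 0.969, limma F test), with 1 of 7 under 0.05 without adjustment (4.3% of all were). Eif2ak3, the kinase PERK of the endoplasmic reticulum, was at -3.35, -3.12, -2.74 and -2.61 (SD 0.34). Ppp1r15a, which brings the phosphatase to eIF2 and is itself induced by stress, was at 1.58, 1.83, 2.19 and 2.21 (SD 0.31). Both were lowest in replicate 1 and highest in replicate 4 with the main scaling, as the 3 eIF4E-binding protein genes were. Eif2ak3 and Eif4ebp3 kept this under the 3 other scalings and normexp. Ppp1r15a was highest in replicate 3 with the 75th percentile over all probes, and Eif4ebp1 and Eif4ebp2 each departed from it in some settings. The share of all detected genes with this order was not counted. For the list, replicate 1 was lowest in 5 of 7 (28.5% of all genes were), with a median deviation of -0.303 there and 0.171 in replicate 4. Under the other scalings and normexp the median in replicate 1 was -0.179 to -0.374.

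**Figure D4:**
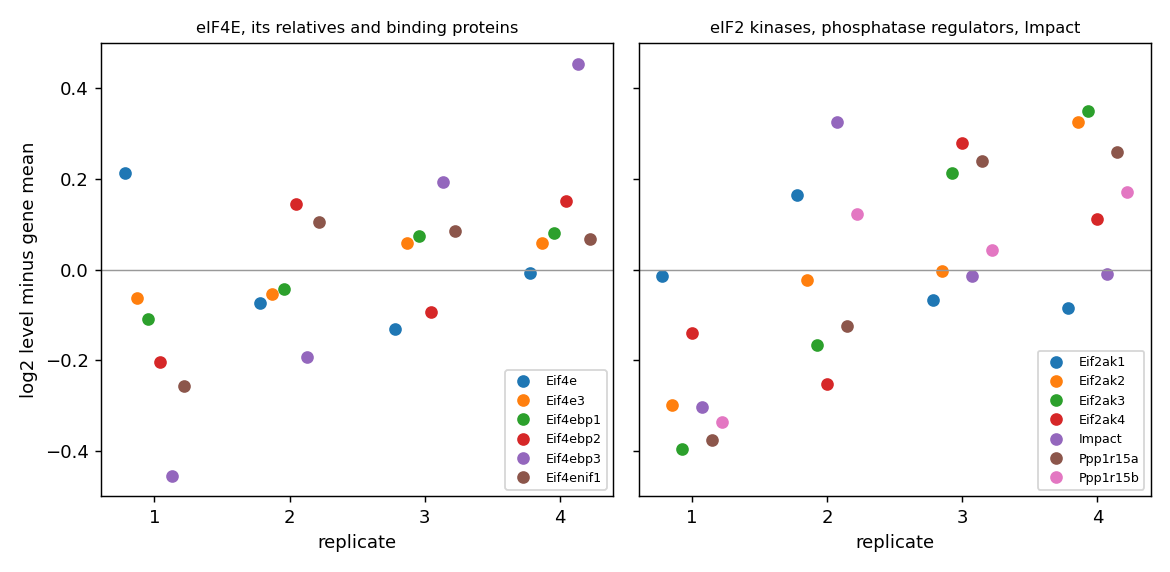
The y axis is the log2 level minus the gene mean and the x axis the replicate, with 1 point per gene, for the 6 genes of the eIF4E group on the left and the 7 genes that control eIF2 on the right; points are set side by side within a replicate for legibility. In replicate 1, 5 of 6 genes on the left and all 7 on the right lie below 0.

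Partner genes of the factors were nearly all detected. Of 8 genes of termination, recycling and ribosome rescue, 7 were, and the exception was Gspt2, a second gene for the release factor eRF3; the most variable was Abce1, which splits ribosomes (SD 0.17). All 12 measured genes of poly(A) binding and of mTOR or MNK control were detected, with Pabpc1, the poly(A)-binding protein gene, at 4.48 ± 0.070 and Pdcd4, an inhibitor of eIF4A, as the most variable (SD 0.29). So were all 8 measured hypusine and diphthamide enzyme genes, which modify eIF5A and eEF2, with Dohh, the last enzyme of hypusine synthesis, as the most variable, at 4.31 ± 0.22. The median SD was 0.123, 0.091 and 0.117 in these 3 lists, and none of their genes passed limma's variance test with or without adjustment.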

How the data were processed

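The deposited intensity is a processed signal per spot, corrected for background by Agilent Feature Extraction 11.0.1.1, per the file headers and the submitters' processing notes. No normalization between arrays is stated in those headers. The deposited flags for outlier spots and for signal well above background were used as given. Each array held 62976 spots, 4259 of them controls; none was saturated. Control spots and outlier spots were left out, repeated spots were averaged on the log2 scale, and levels were taken relative to the 75th percentile over probes detected on all arrays (39.3% of probes). That percentile lay between 1969.6 and 2493.2. A probe was detected where the flag held for most of its spots. Accessions were matched without versions to RefSeq genes of GRCr8; 24489 probes stayed unnamed. Start regions are RefSeq's on that build, and probe positions, which the headers give on an older one, were not used.

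A gene's level came from its brightest probe, detected ones first. The variance test was an intercept fit with limma 3.58.1 in R 4.3.3 over all detected genes. Tested on simulated data of 4 arrays, it missed all but very large spreads. Reading used the package data.table (1.17.8), and plots were made in Python 3.11.15 with matplotlib 3.10.9. All arrays share 1 slide, so position on it and replicate cannot be told apart.

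The genes and lists were chosen with earlier results of these data known. A marker of other lung cells is not reported here. Values in each array are given for core subunits of each factor, the 6 genes with the largest SD genes with 1 array apart, and genes whose probes disagree on detection; the others are given by counts and ranges. Outside that rule, Eef1a2, Eif2s3, Eif3f, Eif4ebp2 and Eif4e3 were given in each array after their values were seen. Settings tried besides these were other detection rules, probe choice, scalings, normexp with an offset of 50 on the median spot signal and median background, no filter, no trend, outlier spots kept, leaving out each replicate, and leaving out dim areas, which are blocks of a 12 by 10 grid where too many spots lay at least 1 log2 unit under the other arrays' median.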

Additional observations from a re-analysis of the deposited data

Results flagged for a closer look

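Of 79 sets of 4 values examined, 7 held 1 replicate that Dixon's ratio, the gap to the nearest value over the whole range, set apart, where chance gives about 3.95 (1 in 20). Among the factor genes there were 5 of 52, and 6.47% of all detected genes passed the same limit. In Eif2b1 (ratio 0.9162), Eif3m (0.9031) and Eif5a (0.8768) replicate 1 was above the others. Eif3m, an eIF3 subunit gene, was at 0.61, 0.35, 0.37 and 0.36 in replicates 1 to 4. In Eif4enif1 (0.8953) replicate 1 was below the others. Eif3g (0.8759), another eIF3 subunit gene, was low in replicate 4, at 1.27, 1.27, 1.24 and 1.01. These ratios of single genes were taken with the main scaling only. With quantile normalization Eif5a was highest in replicate 4, and with the median over all probes Eif3g was lowest in replicate 2. In Eif2b1, Eif3m and Eif4enif1 replicate 1 kept its place as highest or lowest array in each setting. The median deviation of all factor genes stood apart in replicate 1 (0.9383), at 0.06 against -0.016, -0.021 and -0.018. That of the mitochondrial translation factors stood apart in replicate 2 (0.9195), at -0.051 against 0.032, 0.036 and 0.029. Neither of these 2 medians kept that replicate apart under the 3 other scalings or normexp. For the mitochondrial factors the values were 0.061, -0.062, 0.06 and -0.013 with the 75th percentile over all probes.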

How the results depend on the processing

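The count of detected factor genes was 52 under 8 of 9 alternatives and 51 when most probes of a gene had to be detected, which takes out Eif2d. No factor gene passed the variance test under any of 11 alternatives, with the lowest adjusted p between 0.784 and 0.991. With 4 arrays the test could hardly pass a gene, so this says nothing about stability. With the median over all probes as the reference, 1 gene, Eif4ebp3, spanned more than 2-fold (2.13-fold), and the shift of the factor genes was -0.175 in replicate 2 and 0.1 in replicate 3, where all detected genes shifted by -0.169 and 0.107; most probes behind that reference were not detected on all arrays. The median SD ran from 0.073 (without replicate 1) to 0.127 when each replicate was left out in turn. It was 0.157 with the median over all probes (0.198 for all detected genes) and 0.099 with the mean over a gene's detected probes. No paired analysis was possible because all samples form 1 group.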

Other observations

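Genes that supply the cytosol and the mitochondria with charged tRNA and factors were detected throughout. All 22 cytosolic aminoacyl-tRNA synthetase and scaffold genes were detected on every array, with a median SD of 0.131. Eprs1, the fused glutamyl- and prolyl-tRNA synthetase, varied most among them, at -0.14, 0.06, 0.35 and 0.38 in replicates 1 to 4 (SD 0.25), with replicates 3 and 4 above replicates 1 and 2. Replicate 1 was lowest for 10 of the 22 and highest for 8, where it was for 28.5% and 34.6% of all detected genes. All 9 measured mitochondrial translation factor genes were detected, with Tufm, the mitochondrial counterpart of eEF1A, at 3.27 ± 0.064 (SD, n = 4) and Gfm2, which recycles mitochondrial ribosomes, as the most variable (SD 0.23). None of the genes of either list passed the variance test (lowest adjusted p = 0.969 and 0.978, limma F test), and none was under 0.05 without adjustment.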
